A study of Homo sapiens with 8 samples.

Results

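HS578T cells that carried an HSF2 plasmid and then received TGF-β1 were compared with cells that had neither, to describe the net change with both factors and to ask which TGF-β changes persisted, returned to the starting level or went further when HSF2 was high. HS578T is an established human breast cancer cell line of mesenchymal, basal-like character. The comparison rests on 4 of the 8 RNA sequencing libraries, chosen by their titles: 2 of cells transfected with 25 µg of a plasmid encoding HSF2 and kept, from 24 h after transfection, in assay medium with 10 ng/ml TGF-β1 for 24 h (HSF2oe TGF-β), and 2 of cells transfected with 25 µg of a GFP (green fluorescent protein) plasmid and kept in assay medium alone for the same time (Mock control). The other 4 libraries, 2 of GFP-transfected cells with TGF-β1 (Mock TGF-β) and 2 of HSF2-transfected cells in medium alone (HSF2oe control), were used to divide the net change into its steps. Levels are given below as with neither factor, with TGF-β alone, with HSF2 alone and with both, though all 4 groups carried a plasmid. The design text describes both libraries of each group as biological replicates. The treatment field contradicts the titles (it reads DMSO in all Mock and TGFb1 in all HSF2oe libraries), and grouping here rests on titles and design text.

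TGF-β ligands bind paired receptor kinases, which phosphorylate SMAD2 and SMAD3. These enter the nucleus with SMAD4 and change transcription, in epithelial cells typically raising matrix, protease inhibitor and mesenchymal genes and holding cells in G1. HSF2 belongs to the heat shock factor family, which binds heat shock elements, inverted repeats of GAA, in promoters of chaperone genes. It forms trimers with HSF1 and is known for roles in development and in the response to damaged proteins.

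Total gene counts ran from 23232467 to 34336107 in the 4 libraries compared, and levels of single genes are given as CPM, the count scaled by the TMM-adjusted library total. HSF2 (ENSG00000025156.13; chr6:122399551-122433119, plus-strand gene, GRCh38) stood at 8.35 and 6.44 CPM with neither factor and at 779.7 and 489 CPM with both, a log2 fold change of 6.43 ± 0.27 (± standard error throughout). These counts mix plasmid and endogenous transcripts. HSF1, its best-known partner, stood at 186 and 175 against 186 and 198 CPM and did not pass the test (log2 0.09 ± 0.09, adjusted p = 0.543, quasi-likelihood F test in edgeR, adjusted by Benjamini-Hochberg, as for every adjusted p below unless another tool is named). All 10 markers of mesenchymal basal-like breast cancer lines exceeded 3 counts in every library, with summed levels of 31344 and 34872 CPM in Mock control and 41942 and 41213 CPM in HSF2oe TGF-β. COL1A1 was the largest part of these sums (14535 and 16526 against 19986 and 18548 CPM). Of the 10 markers 3 passed the test higher and 2 lower, where 10.1% and 11.7% of all genes did. Their median log2 change was -0.11, so the sums do not describe the markers as a group. The 10 luminal markers summed to 304 and 275 CPM against 212 and 234 CPM, mostly KRT18, with PGR at 0 in each, and the 10 blood and endothelial markers to at most 6.78 CPM in these 4 libraries. The squared differences between the HSF2oe TGF-β libraries were 26.8 times those of counting noise (chi-square per degree of freedom). This ratio was the largest of the 4 groups, with 12.5 to 18.5 in the others, and it grows with library totals, which differed between groups. Mitochondrially encoded genes took 4.27% of the counts of HSF2oe TGF-β replicate 1 and 2.56% of replicate 2. What part the gap between these 2 libraries has in the results was not tested, and values without either library are given where they matter. In bulk RNA, a change in the share of cells that express a gene and a change in RNA per cell cannot be told apart.

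Adding both factors changed a large part of the transcriptome. Of 16008 genes tested, 3475 (21.7%) passed at an adjusted p threshold of 0.05, 1609 (10.1%) higher and 1866 (11.7%) lower in HSF2oe TGF-β, and 983 of them changed by at least 1 on the log2 scale, 385 higher and 598 lower. TGF-β in Mock cells alone called 2213 genes (13.8%), 1172 (7.32%) higher and 1041 (6.5%) lower. CPM values of the groups did not overlap for any of the 3475, which is the case for 60.9% of all genes tested. Scaling by library totals alone gave 1180 higher and 2352 lower, so 33.4% of the calls were rises against 46.3% with TMM scaling. Calls fell to 818 higher and 969 lower without Mock control replicate 2, to 795 and 1013 without HSF2oe TGF-β replicate 1, to 1053 and 1433 without Mock control replicate 1 and to 1248 and 1430 without HSF2oe TGF-β replicate 2.

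Called genes were ranked by net change if their log2 CPM, averaged over the 8 libraries, reached 1 and their groups did not overlap, with HSF2 left out. The 8 largest rises were in ESM1, BMP6, PTGS2, ST6GAL2, CLDN14, IL11, RP11-69I8.3 and EDN1. Genes below that level, such as MMP13, were not ranked. ESM1 (ENSG00000164283.13; chr5:54977867-55022671, minus-strand gene), which encodes the secreted proteoglycan endocan, went from 0.225 and 0.142 CPM with neither factor to 22.4 and 14.1 CPM with both, a log2 change of 6.65 ± 0.59. BMP6 (ENSG00000153162.9; chr6:7726099-7881728, plus-strand gene), a bone morphogenetic protein, went from 0.15 and 0.142 to 11.9 and 14.1 CPM (log2 6.44 ± 0.26). The Mock control levels of ESM1 and BMP6 rest on few reads, so these standard errors may lie below the counting error. BMP6 had reached 19.3 and 19.6 CPM with TGF-β alone, above both libraries with HSF2, whereas ESM1 had reached 1.95 and 0.983 CPM. PTGS2, the inducible prostaglandin synthase COX-2, rose from 3.41 and 3.49 to 58 and 33.7 CPM (log2 3.74 ± 0.30) and the sialyltransferase gene ST6GAL2 from 1.31 and 1.76 to 18 and 21.9 CPM (log2 3.67 ± 0.24). For both, as for every gene ranked here, the 2 groups did not overlap, which the ranking required. CLDN14, a tight junction claudin, rose by 3.56 ± 0.29, the cytokine gene IL11 by 3.37 ± 0.11 and the endothelin gene EDN1 by 3.09 ± 0.15. The noncoding RP11-69I8.3 rose as well, from 1.72 and 0.737 to 13.8 and 10.1 CPM, but 39.4% of its exonic bases are shared with other genes, mainly CCN2, so its counts are uncertain.

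The 8 largest falls, ranked with the same minimum, ran from -3.63 to -2.79 on the log2 scale. SECTM1, a secreted and transmembrane protein gene, went from 45.2 and 38.5 to 4.29 and 2.26 CPM (log2 -3.63 ± 0.25). PDE5A (ENSG00000138735.16; chr4:119494397-119628804, minus-strand gene), the phosphodiesterase that breaks down cGMP, went from 28.5 and 33.5 to 4.11 and 3.58 CPM (log2 -3.00 ± 0.22). ZNF423 (ENSG00000102935.12; chr16:49487524-49857919, minus-strand gene), a zinc finger transcription factor that takes part in BMP signalling, stood at 5.65 and 7.63 CPM with neither factor, 6.25 and 6.64 with TGF-β alone, 2.18 and 3.16 with HSF2 alone and 0.778 and 0.809 with both. Its level was thus lowest where both factors were present, and its TGF-β change in Mock was -0.05 ± 0.22 (adjusted p = 0.93) against a net change of -3.07 ± 0.27. The others were TMEM132B (-3.31 ± 0.22), the ankyrin gene ANK1 (-3.11 ± 0.20), the calcineurin regulator RCAN2 (-3.00 ± 0.31), the Wnt-associated receptor LGR5 (-2.85 ± 0.27) and PLEKHA6 (-2.79 ± 0.22).

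Each of the 2213 genes that TGF-β changed in Mock cells was placed by 2 further calls: the net change and the difference between HSF2oe TGF-β and Mock TGF-β. A change that was still called against Mock control, in the same direction and with no called difference from Mock TGF-β, persisted; there were 771 such genes (34.8%), 406 raised and 365 lowered by TGF-β. A change called in the same direction and significantly larger than in Mock TGF-β exceeded it, as 133 genes did (6.01%), 48 raised and 85 lowered. It was reduced, though still called, for 100 genes (4.52%), 76 raised and 24 lowered. A gene returned when HSF2oe TGF-β differed from Mock TGF-β against the TGF-β change and no net change was called: 788 genes (35.6%), 405 raised and 383 lowered. As a net change that misses the threshold does not show a return, the 95% interval was used as well, and it lay within ±0.5 on the log2 scale for 561 of the 788. The net change was called in the opposite direction, crossing the starting level, for 58 genes (2.62%), 39 raised and 19 lowered, and 363 genes (16.4%) fell in no such class (unresolved). A further 2413 of the 3475 net calls (69.4%) were genes not called for TGF-β in Mock, 1060 higher and 1353 lower, and for 759 of these none of the single-step contrasts was called.

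**Figure D1:**
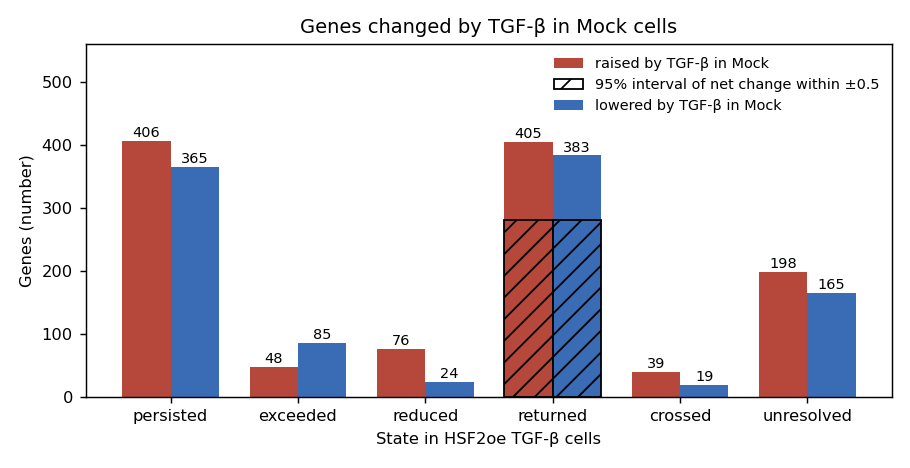
Number of genes changed by TGF-β in Mock cells (y axis) by their state in HSF2oe TGF-β cells (x axis), with genes raised and genes lowered by TGF-β in Mock as separate bars; hatching marks returned genes whose 95% interval of the net change lies within ±0.5. The persisted bars (406 raised, 365 lowered) and the returned bars (405 and 383) are the tallest, and within each direction the crossed bar (39 and 19) is the shortest.

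These contrasts share libraries: Mock control enters the TGF-β contrast in Mock and the net change, and Mock TGF-β enters the former and the HSF2oe difference, so deviations of those libraries favour the persisted and returned classes. TGF-β over control within HSF2oe cells, where 1323 genes were called (8.26%; 4.45% of all genes higher and 3.82% lower), shares no library with TGF-β over control in Mock. It does use the HSF2oe TGF-β libraries, through which the classes were defined, so its class medians are in part fixed by that choice and are given as a description. In it, genes that returned moved by a median of 0.38 (raised) and -0.29 (lowered) on the log2 scale, against 0.61 and -0.69 in Mock. Genes that persisted moved by 0.60 and -0.53, against 0.77 and -0.71 in Mock, and genes that exceeded by 0.68 and -0.94, against 0.64 and -0.72. The HSF2oe difference without TGF-β, which shares the Mock control libraries with those calls, had medians of -0.39 and 0.28 for returned genes and of 0.61 and -0.76 for genes that exceeded. The difference between both TGF-β responses was itself called for 0 of 16008 genes by edgeR's quasi-likelihood test, with 977 at an unadjusted p under 0.05 and 23 called by DESeq2, 83 with no low-count filter and 78 with a replicate block. With 0 calls in the main test, a class does not show that the response to TGF-β differed between the transfections. The number that returned was 299 without Mock TGF-β replicate 2 and 439 without Mock control replicate 1, and the number that persisted was 429 and 433 without Mock control replicate 1 or 2.

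Among genes raised by TGF-β, IL11, EDN1, IL6 and MYO10 were raised further with HSF2. IL11 (ENSG00000095752.7; chr19:55364382-55370463, minus-strand gene), an IL-6 family cytokine and a SMAD target, stood at 29 and 24.9 CPM with neither factor, 47.2 and 44.2 with HSF2 alone, 176 and 170.4 with TGF-β alone and 275 and 281 with both. Its 2 libraries with both factors lay above all others, 0.68 ± 0.10 above Mock TGF-β on the log2 scale (adjusted p = 0.000519). EDN1 (ENSG00000078401.7; chr6:12290361-12297194, plus-strand gene), the vasoconstrictor peptide endothelin, stood at 44.6 and 48.1, 57.7 and 82.6, 191 and 176 and 408 and 379.8 CPM in the same order, 1.10 ± 0.14 above Mock TGF-β. IL6 rose by 2.00 ± 0.13 over Mock control, from 22.2 and 26.8 to 97.2 and 98.5 CPM, though 20.7% of its exonic bases overlap other genes, mainly its antisense IL6-AS1. MYO10, an unconventional myosin of filopodia, rose by 1.18 ± 0.12. PTGS2 fell in the same class. IL11, EDN1, IL6 and PTGS2 kept this class in all 16 alternative settings that allow it, while MYO10, with a TGF-β change in Mock of 0.41 ± 0.12, was not called for TGF-β when any of the 4 Mock libraries was left out or under library totals alone.

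Because AP-1 sites near a start are a known route by which SMAD and MAPK signals meet, the 300-base RefSeq promoter windows (GRCh38.p14, 250 bases before to 50 after the start) were searched for the AP-1 letters TGANTCA on both strands. Of 37 genes with a window that TGF-β raised and HSF2 raised further, 5 (13.5%) held it, against 7.76% of all 27305 promoters and 4.89% of 11105 genes tested. AP-1 was not alone in this. The letters CAGACA were in 21.6% of the 37 (12.4% of genes tested) and TTTGAA in 13.5% (9.67%). Others, such as TGACGTCA (2.7% against 3.27%), had smaller shares than in genes tested. The IL11 promoter (chr19:55370444-55370613, minus strand) is shown from 150 bases before to 20 after the start, 5′ to 3′ along the gene, with the AP-1 match in capitals, 96 bases upstream. The CXCL8 promoter (chr4:73740419-73740588, plus strand) holds a match 137 bases upstream. CXCL8, described further on, was lowered by TGF-β in Mock and is not among the 37.
IL11: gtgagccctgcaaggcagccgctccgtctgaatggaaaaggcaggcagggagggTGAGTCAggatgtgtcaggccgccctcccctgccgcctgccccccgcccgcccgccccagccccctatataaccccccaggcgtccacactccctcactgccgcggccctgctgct
CXCL8: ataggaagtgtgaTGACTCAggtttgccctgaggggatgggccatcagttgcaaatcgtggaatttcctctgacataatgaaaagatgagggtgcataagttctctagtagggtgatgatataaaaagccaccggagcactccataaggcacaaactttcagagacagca
A match describes the letters and is not evidence of binding.

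Genes lowered by TGF-β and further lowered with HSF2 included PTGIS (ENSG00000124212.6; chr20:49503874-49568137, minus-strand gene), which encodes prostacyclin synthase. PTGIS went from 155 and 144 CPM with neither factor to 95.8 and 108 with TGF-β, 77.9 and 68.2 with HSF2 and 27.2 and 25.5 with both, a net log2 change of -2.50 ± 0.11 of which -1.95 ± 0.11 separates it from Mock TGF-β. PTGS2 and PTGIS, which act in succession in prostacyclin synthesis, therefore changed in opposite directions. UBA7, the E1 enzyme of ISG15 conjugation, fell by 2.64 on the log2 scale, from 23.4 and 27.1 to 3.89 and 4.26 CPM. The protocadherin gene PCDH7 (-1.63 ± 0.10), the olfactomedin family gene OLFML2A (-2.42 ± 0.16) and the apolipoprotein L gene APOL6 (-2.26 ± 0.14) fell too. PTGIS, UBA7 and APOL6 kept their class in all 16 settings, and PCDH7, with a TGF-β change in Mock of -0.31 ± 0.10, in 9.

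**Figure D2:**
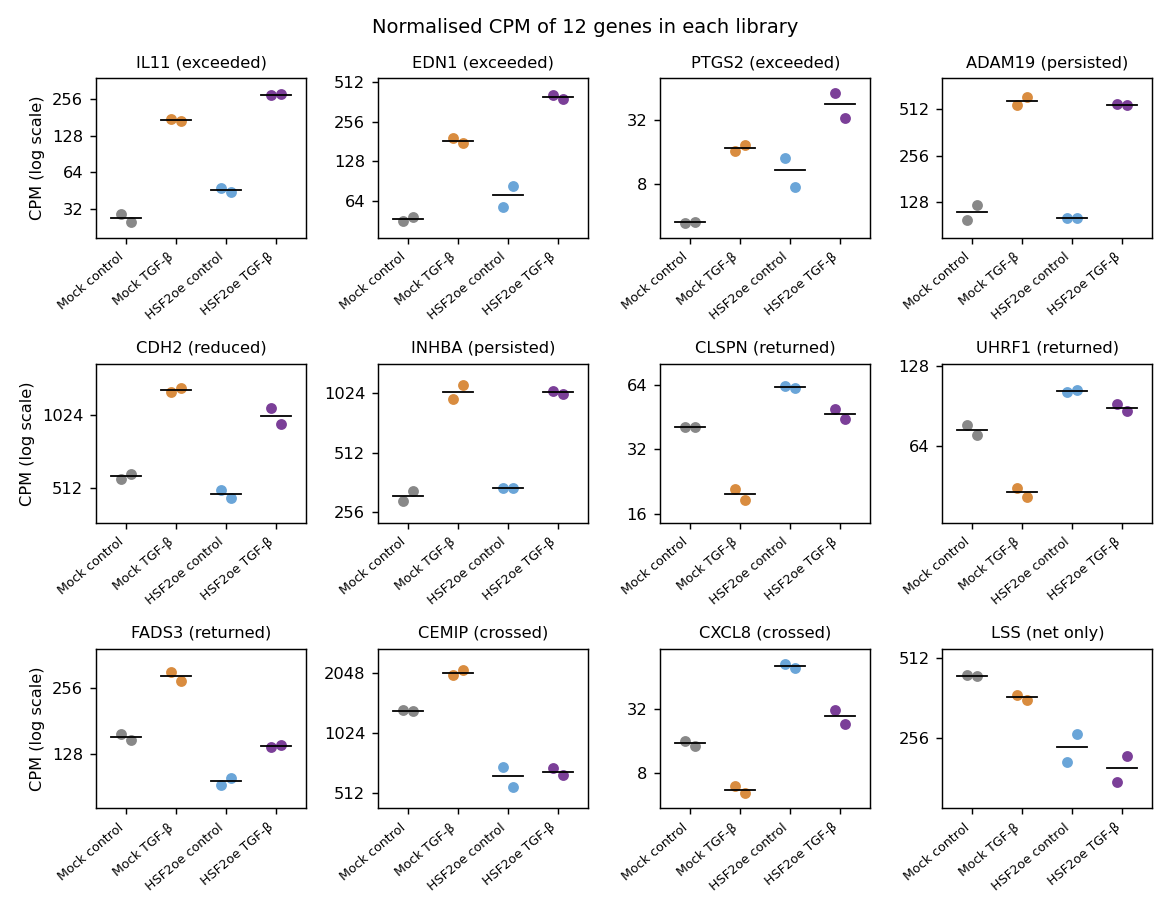
Normalised CPM (y axis, log scale) of 12 genes in each of the 8 libraries, by group (x axis), with points for libraries and a line for the group mean; the class of each gene is in its title. IL11, EDN1 and PTGS2 are highest with both factors, CLSPN and UHRF1 are lowest in Mock TGF-β, and CEMIP in HSF2oe TGF-β lies below Mock control (684 and 629.8 against 1329 and 1319.6 CPM).

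Most of the canonical SMAD response was still present with HSF2. Of 40 SMAD target genes, 31 rose (77.5%, against 10.1% of all genes tested) and 0 fell in the net comparison, with a median log2 change of 1.22 against -0.0004 over all genes. In Mock cells 33 rose and 1 fell with TGF-β, with a median of 1.30, where 7.32% of all genes rose and 6.5% fell. Of the 40, 20 persisted, 4 exceeded, 5 were reduced and 4 returned. The list rests on general knowledge of the pathway, and the rise of its members in Mock was known when it was chosen. ADAM19 (ENSG00000135074.16; chr5:157395534-157575775, minus-strand gene), a membrane metalloprotease gene, stood at 98.7 and 123 CPM with neither factor, 549 and 619 with TGF-β alone and 555 and 544 with both (net log2 2.31 ± 0.12). Its level with both factors lay far above that with neither, and the difference from Mock TGF-β was -0.09 ± 0.11 (adjusted p = 0.627). RHOB, a small GTPase, exceeded its TGF-β level (117 and 107 CPM with TGF-β alone, 182 and 155 with both), but not without Mock TGF-β replicate 2. CCN2, the matricellular connective tissue growth factor, rose by 2.08 ± 0.15 and the stress gene GADD45B by 1.62 ± 0.10, both in the persisted class in all 16 settings. SERPINE2, a protease inhibitor, rose by 2.09 ± 0.10 but was reduced against Mock TGF-β (-0.33 ± 0.10), a reduction not called in 6 of 16 settings, among them without either Mock TGF-β library, either HSF2oe TGF-β library or Mock control replicate 2. The count of risers ran from 25 to 33 over the alternatives.

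Of 21 tested ligand and latency genes, 13 rose and 2 fell with TGF-β in Mock (median log2 change 0.63), where 7.32% of all genes rose and 6.5% fell. In the net comparison 7 rose (33.3%, against 10.1% of all genes) and 3 fell (14.3%, against 11.7%), with a median of 0.16. INHBA, the activin A subunit, persisted at 1051 and 1009.8 CPM against 290.1 and 329 with neither factor and 950.2 and 1122 with TGF-β alone (net 1.74 ± 0.11). LTBP2, a latent TGF-β binding protein, persisted too (1.71 ± 0.13), although in 4 of 16 settings it was reduced. FSTL3, an activin antagonist, was reduced: 97.3 and 97.2 CPM with neither factor, 305 and 306 with TGF-β alone and 195 and 189.8 with both. Its 3 groups did not overlap, and the difference from Mock TGF-β was -0.67 ± 0.09 (adjusted p = 0.000382).

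Of 27 receptor, SMAD and feedback genes, 5 rose (18.5%, against 10.1% of all genes) and 3 fell (11.1%, near the 11.7% of all genes). SMAD7 (ENSG00000101665.10; chr18:48919853-48950965, minus-strand gene), the inhibitory SMAD, stood at 31.3 and 32.1 CPM with neither factor, 56.5 and 59.1 with TGF-β alone, 60.2 and 43.8 with HSF2 alone and 78.9 and 65.6 with both, a net change of 1.19 ± 0.14. Its libraries with both factors lay above all others, but the difference from Mock TGF-β missed the threshold (0.32 ± 0.14, adjusted p = 0.115). PMEPA1, which sequesters receptor SMADs, rose by 2.02 ± 0.14 and the SMAD corepressor SKIL by 1.09 ± 0.09. SMURF2, a ubiquitin ligase for the pathway, was raised in the net comparison and not by TGF-β in Mock (41.6 and 35.4 CPM with neither factor, 45.7 and 40.8 with TGF-β alone, 91.1 and 71.5 with both; net 1.08 ± 0.14). Without HSF2oe TGF-β replicate 2, 1 gene of this group fell.

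Most transcription factors of epithelial-mesenchymal transition were higher with both factors. Of 17 such factors and partners 11 rose (64.7%, against 10.1% of all genes) and 1 fell (5.88%, against 11.7%). Of these 12, 6 were not called for TGF-β in Mock, against 69.4% of all net calls. FOXS1 (0.974 and 1.98 CPM with neither factor, 20.8 and 19.7 with TGF-β alone, 5.54 and 10.9 with both) was reduced but still raised, the reduction being lost without HSF2oe TGF-β replicate 1. SNAI1, a repressor of E-cadherin, persisted at 2.58 and 2.09 CPM against 0.637 and 0.765 (net 1.73 ± 0.33). TCF4 rose by 1.85 ± 0.19 and SOX4 by 1.22 ± 0.16, both close to their TGF-β changes in Mock. SOX9 stood at 24.4 and 24.2 CPM with neither factor, 29.1 and 23.2 with TGF-β alone and 53.4 and 42.8 with both (net 0.98 ± 0.13). SNAI2 did not pass (net 0.34 ± 0.12, adjusted p = 0.064), and passed in 4 of 17 settings.

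Of 27 adhesion genes 8 rose (29.6%, against 10.1% of all genes) and 6 fell (22.2%, against 11.7%), or 5 and 3 without HSF2oe TGF-β replicate 1. CDH2 (ENSG00000170558.10; chr18:27932879-28177946, minus-strand gene), encoding N-cadherin, stood at 555 and 583 CPM with neither factor, 1267 and 1314 with TGF-β alone and 1085 and 933 with both, a net rise of 0.83 ± 0.11. The latter lay below both Mock TGF-β libraries, a difference of -0.36 ± 0.11 whose call was lost without either Mock TGF-β library or without HSF2oe TGF-β replicate 2. CDH1, encoding E-cadherin, was barely detected, at 0.262 and 0.539 CPM with neither factor and 0.529 and 0.256 CPM with both, and did not pass (net -0.02 ± 0.60). The fibronectin gene FN1 rose from 25600.5 and 30242 to 40522 and 37031 CPM (net 0.47 ± 0.14, adjusted p = 0.0259), a call lost in 4 of 17 settings, among them without Mock control replicate 1 or HSF2oe TGF-β replicate 1 (log2 0.36 to 0.61 over all settings). VIM, encoding vimentin, passed at 0.36 ± 0.11 (adjusted p = 0.0314), lost the call in 8 of 17 settings and shares 24.3% of its exonic bases. The desmoplakin gene DSP rose by 1.88 ± 0.16 and the keratin gene KRT17 by 1.14 ± 0.10, while S100A4 fell from 43.5 and 45.2 to 19.8 and 21.6 CPM.

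The cell cycle genes that TGF-β lowered in Mock stood near the Mock control level with both factors. Of 50 G1-S and DNA replication genes, 46 fell with TGF-β in Mock (median -0.86), where 6.5% of all genes fell, and 43 were higher in HSF2oe TGF-β than in Mock TGF-β (median 0.86), as were 9.6% of all genes. In the net comparison 3 rose (6.0%, against 10.1% of all genes) and 4 fell (8.0%, against 11.7%), with a median of -0.02. Of the 50, 38 were in the returned class, as were 788 of all 16008 genes. Within HSF2oe cells, 13 fell with TGF-β (median -0.32, against 3.82% of all genes called lower), and without TGF-β 12 were higher with HSF2 (median 0.29, against 4.88% called higher). Of 50 G2-M and mitosis genes 47 fell in Mock (median -0.68), 40 were higher with HSF2 (0.52), 0 rose and 6 fell in the net comparison (median -0.10), and 38 returned. Without Mock TGF-β replicate 2, 30 of the G1-S genes and 19 of the G2-M genes returned.

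CLSPN (ENSG00000092853.14; chr1:35720218-35769978, minus-strand gene), encoding the replication checkpoint protein claspin, stood at 40.8 and 40.6 CPM with neither factor, 20.9 and 18.4 with TGF-β alone, 63.2 and 61.8 with HSF2 alone and 49.3 and 44.6 with both. The TGF-β change was -1.05 ± 0.11 in Mock and -0.41 ± 0.10 in HSF2oe cells, and the net change 0.21 ± 0.10 (95% interval -0.01 to 0.42). UHRF1 (ENSG00000276043.5; chr19:4903080-4962154, plus-strand gene), which maintains DNA methylation through replication, stood at 76.7 and 70.6, 44.5 and 41.3, 102 and 104 and 91.6 and 86.7 CPM in the same order. Its net change of 0.28 ± 0.09 had an adjusted p of 0.0513, just over the threshold, and passed in 4 of 17 settings. FAM111B, a protease gene of S phase, stood at 14.2 and 11.6 CPM with neither factor, 2.47 and 2.26 with TGF-β alone and 12.8 and 9.76 with both. Its net interval (-0.52 to 0.16) reached below -0.5, so a return was not shown for it. The flap endonuclease gene FEN1 (net interval -0.09 to 0.33) and FBXO5, an inhibitor of the anaphase-promoting complex (-0.08 to 0.39), were alike in that Mock TGF-β was their lowest group. LIG1, the replicative DNA ligase, was reduced without returning (44.5 and 44.8 CPM with neither factor, 23.4 and 20.8 with TGF-β alone, 31.4 and 31.7 with both, net -0.50 ± 0.10), a reduction not called without Mock TGF-β replicate 2.

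Mitotic genes that stayed low included the phosphatase gene CDC25B (337 and 324 against 179.6 and 196 CPM, net -0.81 ± 0.11), the topoisomerase gene TOP2A (-0.59 ± 0.10) and the kinesin gene KIF20A (-0.59 ± 0.11). CCNB2, a mitotic cyclin, was also called (-0.42 ± 0.11), but not without either Mock control library or HSF2oe TGF-β replicate 1. MKI67, the proliferation marker, stood at 422 and 543 CPM with neither factor, 246 and 291 with TGF-β alone and 308 and 409.9 with both. Its net change of -0.43 ± 0.15 missed the threshold (adjusted p = 0.0541), so neither a return nor a persistence was shown. The net fall of G2-M genes numbered 3 without Mock control replicate 2 or HSF2oe TGF-β replicate 1, and the G1-S rises numbered 0 without either. The 4 G1-S falls numbered 1 without Mock control replicate 1 or HSF2oe TGF-β replicate 1.

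Promoter windows of genes that returned from a fall were searched for cell cycle motifs. The E2F letters TTTCCCGC or TTTGGCGC (both strands) were in 13.4% of 313 such promoters and 52.5% of 40 G1-S promoters, against 2.31% of all promoters and 3.65% of genes tested. The CHR letters TTTGAA, which cell cycle repressor complexes bind in G2-M genes, were in 27.5% of the 313 and 68.2% of 44 G2-M promoters, against 15.4% and 9.67%. CLSPN and UHRF1 are shown for their E2F matches 5 and 14 bases upstream of the start, and CKAP2L, a spindle gene, for its 2 CHR matches 86 and 17 bases upstream (chr1:35769959-35770128, minus strand; chr19:4909351-4909520, plus strand; chr2:112764590-112764759, minus strand). CKAP2L crossed the starting level and is in neither the 313 nor the G2-M list.
CLSPN: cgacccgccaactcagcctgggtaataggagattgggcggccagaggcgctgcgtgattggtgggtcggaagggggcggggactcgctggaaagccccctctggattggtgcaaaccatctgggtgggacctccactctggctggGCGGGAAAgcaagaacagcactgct
UHRF1: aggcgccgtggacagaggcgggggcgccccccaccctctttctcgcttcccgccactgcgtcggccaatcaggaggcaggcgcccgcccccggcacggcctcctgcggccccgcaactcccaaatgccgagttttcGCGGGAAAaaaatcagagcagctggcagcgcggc
CKAP2L: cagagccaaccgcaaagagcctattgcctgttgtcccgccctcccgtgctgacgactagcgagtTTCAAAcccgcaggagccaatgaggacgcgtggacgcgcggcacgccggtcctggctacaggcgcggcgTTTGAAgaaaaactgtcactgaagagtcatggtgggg
Capitals mark the matches, and the windows run from 150 bases before to 20 after the RefSeq start. Both lists have members in this class, so the shares of class and lists are not separate observations.

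**Figure D3:**
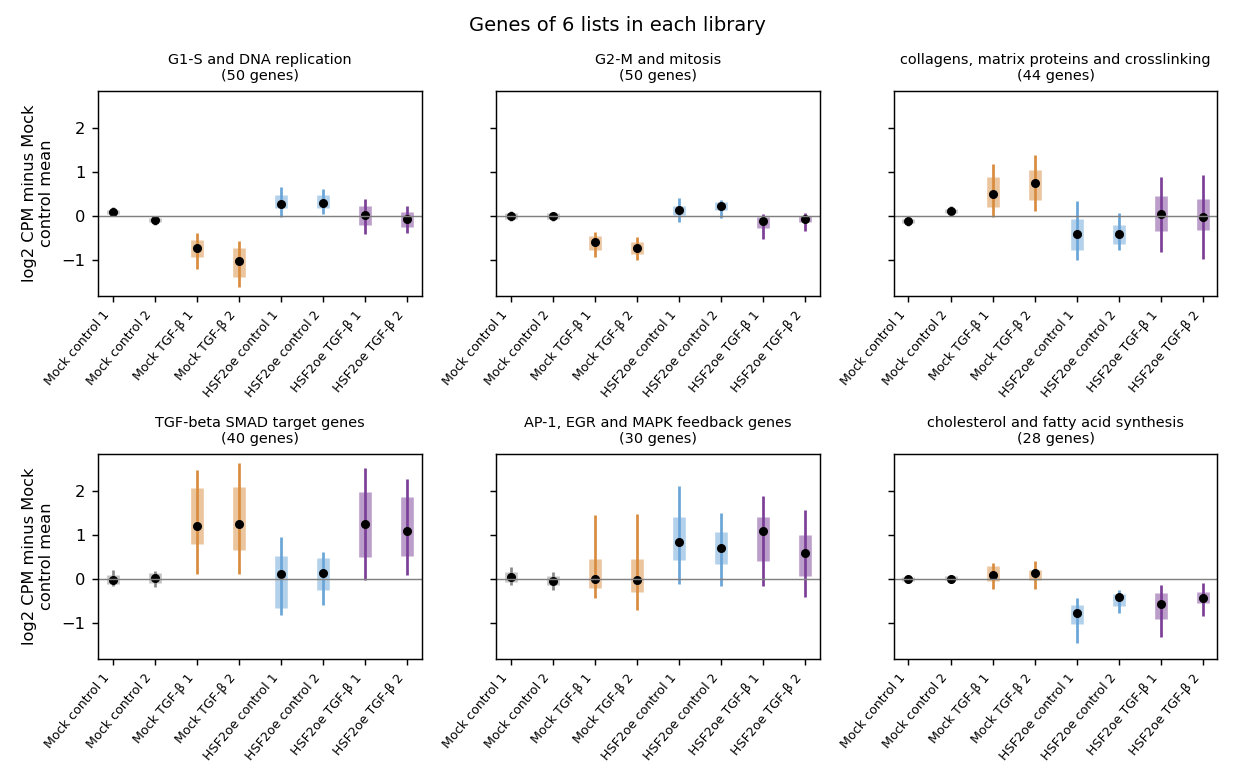
Level of the tested genes of 6 lists in each library (x axis), as log2 CPM minus the Mock control mean (y axis); the dot is the median over genes, the thick bar the middle quartiles and the thin line the 10th to 90th percentiles. Both cell cycle lists dip in the Mock TGF-β libraries and lie near 0 in HSF2oe TGF-β, whereas SMAD targets stay high there.

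Of 44 tested collagen, matrix and crosslinking genes, 27 rose with TGF-β in Mock (median 0.66), where 7.32% of all genes rose. In HSF2oe TGF-β 30 were lower than in Mock TGF-β (median -0.58), as were 11.9% of all genes. In the net comparison 10 rose (22.7%, against 10.1% of all genes) and 9 fell (20.5%, against 11.7%), with a median of -0.02. Of the 44, 16 returned, as did 788 of all 16008 genes, and fewer did without Mock control replicate 1 or Mock TGF-β replicate 2. COL4A1, a basement membrane collagen chain, was reduced (1280.4 and 1636 CPM with neither factor, 4202 and 5006 with TGF-β alone, 3006 and 3033 with both, net 1.05 ± 0.13), though not without Mock TGF-β replicate 2. COL7A1, the anchoring fibril collagen, persisted (1.06 ± 0.12). The small proteoglycan gene DCN, encoding decorin, fell from 243 and 363 to 109 and 117 CPM (net -1.42 ± 0.18) though TGF-β alone had not moved it past the test. COL1A1, chosen here after its values were seen as the most abundant collagen transcript, had a TGF-β change of 1.19 ± 0.13 in Mock and a net change of 0.31 ± 0.12 that missed the threshold, which put it in the returned class. Its net interval (0.04 to 0.58) passed 0.5 and its groups did not overlap, so a return was not shown.

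Of 40 contractile genes, 25 rose with TGF-β in Mock (median 0.49), where 7.32% of all genes rose. In HSF2oe TGF-β 21 were lower than in Mock TGF-β (median -0.36), as were 11.9% of all genes. Of the 40, 15 returned, as did 788 of all 16008 genes. In the net comparison 9 rose (22.5%, against 10.1% of all genes) and 2 fell (5.0%, against 11.7%), with a median of 0.15. These counts were unsteady: 3 returned without Mock TGF-β replicate 2, 9 without Mock control replicate 1 and 7 without HSF2oe TGF-β replicate 1. Library totals alone gave 10 rises in Mock, 5 net rises and 7 returns, and net rises numbered 3 without either Mock control library and 4 without HSF2oe TGF-β replicate 2. TPM1, a tropomyosin gene that shares 24.1% of its exonic bases with other genes, persisted (0.80 ± 0.14). MYLK, the myosin light chain kinase, fell (-0.51 ± 0.13), a call lost without Mock control replicate 2 or HSF2oe TGF-β replicate 1. Of 38 genes of endoplasmic reticulum stress and the ATF4 response, 16 rose with TGF-β in Mock, where 7.32% of all genes rose. Of the 38, 11 returned, as did 788 of all 16008 genes. In the net comparison 4 rose (10.5%) and 5 fell (13.2%), shares near those of all genes, with fewer falls without Mock control replicate 2. DDIT4, an inhibitor of mTOR signalling, stood at 169 and 177 CPM with neither factor, 207 and 227 with TGF-β alone, 37.2 and 59.8 with HSF2 alone and 38.7 and 77.4 with both (net -1.58 ± 0.25), and its libraries with HSF2 lay below all Mock libraries. The 11 numbered 3 without Mock TGF-β replicate 2, 6 without Mock TGF-β replicate 1 or HSF2oe TGF-β replicate 2, 7 without HSF2oe TGF-β replicate 1 and 4 without Mock control replicate 1 or under library totals alone.

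Among 31 matrix proteases and inhibitors 12 rose (38.7%, against 10.1% of all genes) and 4 fell (12.9%, near the 11.7% of all genes), with a median of 0.32, or -0.04 without HSF2oe TGF-β replicate 1, and 1 fell without Mock control replicate 2. MMP13, a collagenase, stood at 0.0749 and 0.0567 CPM with neither factor, below the 3-count floor, 4.36 and 7.52 with TGF-β alone and 3.73 and 4.6 with both. Of 24 integrin and laminin chains 7 rose and 7 fell (29.2% each, against 10.1% and 11.7% of all genes), with a median of 0.21. Without HSF2oe TGF-β replicate 1, 3 rose and 4 fell (median -0.19), and falls numbered 3 without Mock control replicate 2 and 4 without HSF2oe TGF-β replicate 2. ITGB8, an integrin chain that activates latent TGF-β, stayed low: 8.42 and 9.36 CPM with neither factor, 2.54 and 2.26 with TGF-β alone and 2.21 and 1.41 with both (net -2.27 ± 0.25). The laminin chain genes LAMA4 (-1.95 ± 0.24) and LAMA5 (-0.95 ± 0.14) fell too. Of 23 YAP-TEAD targets 11 rose (47.8%, against 10.1% of all genes) and 1 fell (4.35%, against 11.7%), or 7 rose without Mock control replicate 2 or HSF2oe TGF-β replicate 1. ANKRD1, a muscle ankyrin repeat gene, went from 8.27 and 5.53 CPM through 33.1 and 25.4 with TGF-β alone to 39.6 and 42.6 with both (net 2.59 ± 0.18), and DLC1, a GTPase-activating protein gene, rose by 1.16 ± 0.09.

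Outside these lists, FADS3, a fatty acid desaturase family gene (ENSG00000221968.9; chr11:61873519-61892051, minus-strand gene), returned from 303 and 276 CPM with TGF-β alone to 137 and 141 CPM, beside 158 and 147 CPM with neither factor (net interval -0.34 to 0.07). SLC1A4, a neutral amino acid transporter, stood at 198 and 215, 367 and 370.2 and 159 and 181 CPM in the same groups, and in 2 of 16 settings it crossed. SCUBE3, a secreted TGF-β family binding protein, stood at 9.62 and 12.4, 24.3 and 30.1 and 8.43 and 7.67 CPM. It kept its class in 13 of 16 settings and crossed in the others. C11orf96, which kept its class in 12 of 16 settings and crossed in the others, and the keratin gene KRT16 completed the group. The net intervals of SLC1A4 (-0.52 to -0.04), SCUBE3 (-0.84 to -0.07), C11orf96 (-0.85 to -0.10) and KRT16 (-0.67 to 0.25) reached below -0.5, so a return was not shown for them.

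Of the 58 genes that crossed the starting level, 39 had been raised by TGF-β. CEMIP (ENSG00000103888.17; chr15:80779343-80951776, plus-strand gene), which degrades hyaluronan, rose with TGF-β in Mock from 1329 and 1319.6 to 1999 and 2112 CPM and stood at 684 and 629.8 CPM with both factors, a net fall of 1.01 on the log2 scale (adjusted p = 6.5e-05). Already without TGF-β it stood at 692 and 553 CPM with HSF2, so the libraries with HSF2 lay below all others whatever the treatment. CORO2B, an actin-binding coronin, moved from 22.8 and 29.1 through 54.8 and 72.3 to 9.36 and 13 CPM (net -1.23 ± 0.18). CRISPLD2 (-0.52 ± 0.10), the lipoprotein receptor gene VLDLR (-0.83 ± 0.14) and SEL1L3 (-1.02 ± 0.11) crossed as well, SEL1L3 in 8 of 16 settings.

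In the other direction, CXCL8 (ENSG00000169429.11; chr4:73740541-73743716, plus-strand gene), the neutrophil chemokine interleukin-8, stood at 16.2 and 14.4 CPM with neither factor, 5.99 and 5.11 with TGF-β alone, 87.1 and 79.2 with HSF2 alone and 31.7 and 23.3 with both. TGF-β lowered it in Mock by 1.47 on the log2 scale, yet the net change was a rise of 0.86 ± 0.14 (adjusted p = 0.000892), and it kept this class in all 16 settings. CKAP2L (ENSG00000169607.13; chr2:112736349-112764664, minus-strand gene) stood at 70.5 and 70.6 CPM with neither factor, 48.2 and 47 with TGF-β alone and 101 and 102 with both (net 0.52 ± 0.09). PITHD1 rose by 0.50 ± 0.10, and was not called for TGF-β without Mock control replicate 1 or Mock TGF-β replicate 2. TNFAIP3, a brake on NF-κB, passed at 0.66 ± 0.16 and ATAD2, a chromatin ATPase, at 0.34 ± 0.11. Both lost the net call without Mock control replicate 2 or HSF2oe TGF-β replicate 1, and ATAD2 in 5 of 17 settings in all.

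Of 30 AP-1, EGR and feedback genes, 20 rose (66.7%, against 10.1% of all genes) and 3 fell (10.0%, against 11.7%) net, with a median log2 change of 0.80. With TGF-β in Mock 5 rose and 3 fell, where 7.32% of all genes rose and 6.5% fell. Of the 23 net calls, 17 were not called for TGF-β in Mock, near the 69.4% of all net calls. Without HSF2oe TGF-β replicate 1, 11 rose. ATF3, a stress-induced factor of the AP-1 family, stood at 6.37 and 3.8 CPM with neither factor, 7.94 and 7.62 with TGF-β alone, 28.1 and 21.8 with HSF2 alone and 28.6 and 17 with both (net 2.20 ± 0.25). JUNB (1.49 ± 0.09) and IER3 (1.81 ± 0.15, 32.9% of exonic bases shared) instead kept their TGF-β rise, and SPRY1, an inhibitor of receptor kinase signalling, kept its fall (-2.17 ± 0.27).

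Of 31 inflammatory and NF-κB target genes tested, 14 rose (45.2%, against 10.1% of all genes) and 3 fell (9.68%, near the 11.7% of all genes). Of the 17 calls, 9 were not called for TGF-β in Mock, against 69.4% of all net calls. IL1B (ENSG00000125538.12; chr2:112829751-112836816, minus-strand gene) stood at 3.03 and 2.44 CPM with neither factor, 4.16 and 4.18 with TGF-β alone, 8.86 and 9.26 with HSF2 alone and 10.4 and 8.69 with both, so that the HSF2 libraries lay above the Mock libraries with either treatment (net 1.81 ± 0.18). CSF1, the macrophage growth factor, went the other way, from 183 and 192 CPM through 84.4 and 75.4 with TGF-β to 57.8 and 54.5 CPM with both (net -1.74 ± 0.10). Of 52 interferon-stimulated genes 6 rose (11.5%, near the 10.1% of all genes) and 17 fell (32.7%, against 11.7%), or 9 fell without Mock control replicate 2 and 11 without either HSF2oe TGF-β library. The risers numbered 3 without Mock control replicate 1 or HSF2oe TGF-β replicate 1 and 10 without HSF2oe TGF-β replicate 2. Those named by the rule were the immunoproteasome gene PSMB9 (16.7 and 14.6 against 4.29 and 2.43 CPM, net -2.19 ± 0.22), PSMB8 (-1.64 ± 0.13, 17.3% of exonic bases shared), the ISG15-conjugating enzyme UBE2L6 (-1.24 ± 0.11) and IFI35 (-1.21 ± 0.13).

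Other genes called in the net comparison and not for TGF-β in Mock were led by TXNIP (ENSG00000265972.6; chr1:145992435-145996579, minus-strand gene), which binds thioredoxin and restrains glucose uptake. It stood at 17.5 and 19.8 CPM with neither factor, 15 and 17 with TGF-β alone, 53.9 and 53.3 with HSF2 alone and 51.6 and 46.7 with both, with no overlap between transfections. The DNA damage gene GADD45A rose by 1.26 ± 0.11, and CCND1, encoding cyclin D1, rose from 336 and 286 to 689 and 683 CPM (net 1.14 ± 0.10), although in 7 of 16 settings its TGF-β change in Mock was called as well. The zinc finger pseudogene ZNF542P rose by 1.40 ± 0.14. Among the falls, LRRC32 (ENSG00000137507.11; chr11:76657524-76670747, minus-strand gene), encoding GARP, which holds latent TGF-β on the cell surface, stood at 63.7 and 69.4 CPM with neither factor, 55.8 and 68.4 with TGF-β alone, 24.4 and 27.3 with HSF2 alone and 19.9 and 21.3 with both. Both of its HSF2oe groups lay below both Mock groups. The adhesion gene NCAM1 fell by 1.88, the collagen VI gene COL6A6 by 1.76, DEPTOR, an inhibitor of mTOR kinase, by 1.79 and the transporter gene SLC12A8 by 2.37 on the log2 scale. COL6A6 kept this class in all 16 settings, DEPTOR in 14, NCAM1 in 11 and SLC12A8 in 7. In the other settings their TGF-β change in Mock was called as well.

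Genes of cholesterol and fatty acid synthesis were lower with both factors. Of 28 such genes 18 fell (64.3%, against 11.7% of all genes tested) and 0 rose, with a median of -0.51. With TGF-β in Mock 2 of the 28 rose and 1 fell, where 7.32% of all genes rose and 6.5% fell. Without TGF-β, 23 were lower with HSF2 than in Mock control, as were 7.22% of all genes. The 18 numbered 9 without Mock control replicate 2 and 8 without HSF2oe TGF-β replicate 1. LSS (ENSG00000160285.15; chr21:46188141-46228824, minus-strand gene), lanosterol synthase, stood at 442 and 439 CPM with neither factor, 373 and 357 with TGF-β alone, 209 and 265 with HSF2 alone and 176 and 220.1 with both (net -1.15 ± 0.13). SREBF1, the transcription factor of this pathway, fell by 1.11 and the mevalonate enzyme gene MVD by 0.75 on the log2 scale.

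Of 43 heat shock proteins and cochaperones 8 rose (18.6%, against 10.1% of all genes) and 3 fell (6.98%, against 11.7%), with a median of 0.13. The risers numbered 3 without Mock control replicate 1 or either HSF2oe TGF-β library, 5 without Mock control replicate 2 and 4 under library totals alone, and 1 fell without Mock control replicate 2. HSPA6 (ENSG00000173110.8; chr1:161524540-161526894, plus-strand gene), a strictly inducible HSP70, had the largest rise, from 0.861 and 0.624 CPM with neither factor and 0.976 and 0.737 with TGF-β alone to 2.41 and 3.19 with HSF2 alone and 4.11 and 3.58 with both (net 2.39 ± 0.31). DNAJB4 rose by 1.06 ± 0.12, while the small heat shock protein gene CRYAB fell (-0.71 ± 0.16). HSPA1A, which shares near-identical sequence with HSPA1B, stood at 95.3 and 100.2 CPM with neither factor and 107 and 112 with both and did not pass (net 0.16 ± 0.10). It had fallen with TGF-β alone (70.6 and 82.9 CPM), a call lost without either Mock control library or Mock TGF-β replicate 1. Of 9 tested heat shock factors and partners other than HSF2, 1 fell (11.1%, near the 11.7% of all genes) and 0 rose. This was HSF4 (-0.96 ± 0.24, 27.1% of exonic bases shared), whose call was lost without Mock control replicate 2 or HSF2oe TGF-β replicate 1.

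Heat shock element letters (GAANNTTC or TTCNNGAA, both strands) were in 35.1% of 37 promoter windows of the chaperone list, against 13.7% of all promoters and 10.0% of genes tested. The chaperone list was not alone in this. Shares were 27.5% for interferon-stimulated genes, 24.1% for ribosomal proteins, 24.0% for inflammatory genes and 23.5% for TGF-β ligands. Other lists, such as contractile genes (2.78%) and cholesterol synthesis (0.0%), had smaller shares than genes tested. The HSPA6 promoter (chr1:161524390-161524559, plus strand) is shown because its gene rose most in the list, with 2 overlapping matches, starting 74 and 69 bases upstream, in capitals.
HSPA6: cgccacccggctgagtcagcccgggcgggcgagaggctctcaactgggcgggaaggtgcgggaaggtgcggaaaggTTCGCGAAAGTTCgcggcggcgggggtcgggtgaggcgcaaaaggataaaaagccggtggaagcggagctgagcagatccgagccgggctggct
The share of the letters in promoters of genes called net and not for TGF-β in Mock was 10.2% for rises and 9.62% for falls.

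Of 32 proteasome subunit genes 4 rose (12.5%, near the 10.1% of all genes) and 0 fell, or 1 rose without either Mock control library or HSF2oe TGF-β replicate 1 and 2 without HSF2oe TGF-β replicate 2 or under library totals alone. PSMD2, a subunit of the regulatory particle, rose from 738 and 707 CPM with neither factor to 1321 and 1289 with both (net 0.85 ± 0.10) and was called in all 17 settings. Of 21 cell cycle inhibitors, G1 cyclins and MYC-axis genes 5 rose (23.8%, against 10.1% of all genes) and 7 fell (33.3%, against 11.7%), or 3 and 2 without HSF2oe TGF-β replicate 1, and 4 fell without either Mock control library. CDKN2B, the p15 inhibitor induced by TGF-β, was reduced (40.2 and 52.4 CPM with neither factor, 297 and 352 with TGF-β alone, 111 and 203 with both), with the 2 HSF2oe libraries far apart and no reduction called without Mock TGF-β replicate 2. MYC, which drives cell growth, rose by 0.92 ± 0.12 and the MYC antagonist MXD4 fell by 0.78 on the log2 scale. Of 24 p53 targets 4 rose and 4 fell (16.7% each, against 10.1% and 11.7% of all genes), and the falls numbered 0 without Mock control replicate 2 or HSF2oe TGF-β replicate 1, where 2 rose, and 2 without Mock control replicate 1 or HSF2oe TGF-β replicate 2. CDKN1A, the p21 inhibitor, rose from 46.5 and 39.2 to 64.9 and 56.1 CPM (net 0.50 ± 0.12), and not when Mock control replicate 2 or HSF2oe TGF-β replicate 1 was left out. Of 30 glycolysis and hypoxia genes 2 rose (6.67%) and 4 fell (13.3%), shares near those of all genes, among the latter the kinase gene PDK1, which restrains pyruvate entry into the citric acid cycle (25.1 and 28.2 against 9.98 and 15.2 CPM, net -1.09 ± 0.21), and the mitophagy gene BNIP3 (-0.86 ± 0.13). The 2 rises numbered 0 without Mock control replicate 2 and 1 without Mock control replicate 1 or either HSF2oe TGF-β library. Of 40 ribosomal protein genes 1 rose (2.5%, against 10.1% of all genes) and 0 fell. The 1 was RPL22 (0.33 ± 0.11), a call lost in 8 of 17 settings.

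**Figure D4:**
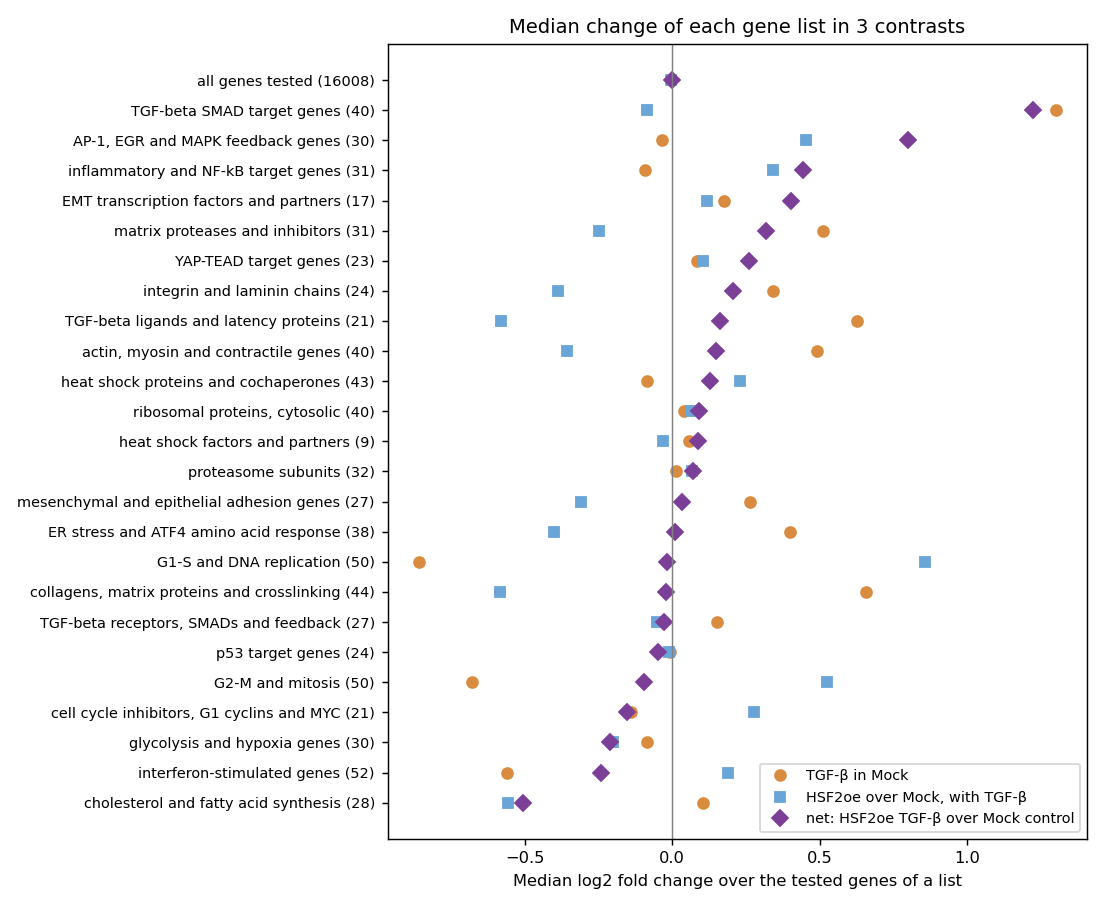
Median log2 fold change (x axis) over the tested genes of each of 24 lists (y axis, number of genes in brackets) in 3 contrasts: TGF-β in Mock, HSF2oe over Mock with TGF-β, and the net change. For both cell cycle lists and for matrix genes the first 2 medians have opposite signs and the net median lies between -0.10 and 0, and for SMAD targets the net median (1.22) lies beside that of TGF-β in Mock (1.30).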

How the data were processed

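Messenger RNA libraries of 8 HS578T samples were sequenced. The authors deposited whole-number gene counts, made per the file headers with featureCounts 2.0.1 on GENCODE release 38 (GRCh38), counting read pairs without strand although the labels' protocol names a stranded kit, so sense and antisense partners cannot be told apart. The submitters' processing notes name STAR 2.7.9a, Subread 2.0.1, edgeR 3.34.1 and bcl2fastq. The authors also deposited log2 CPM of 13169 genes, which lie within 0.0226 of TMM log2 CPM (prior count 2) recomputed from the counts.

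The counts were fitted with edgeR 4.0.16 (R 4.3.3): low-count filter by group (16008 of 60708 genes), TMM scaling, one mean per group over all 8 libraries, quasi-likelihood test, Benjamini-Hochberg adjustment at 0.05. Standard errors were derived from the fold change on the log2 scale and its F statistic. With 2 libraries a group there were 4 residual degrees of freedom, and the common coefficient of biological variation was 9.91%. Totals of all libraries ran from 17427645 to 34336107 counts, where 3 counts, the most that a count of 0 allows, equal 0.0850 to 0.195 CPM. This limit covers counting error only. The test was checked on simulated counts.

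Genes were named by a rule: 12 fixed genes, the 8 largest rises and falls, the 5 with the smallest p per class and direction, and the 4 with the smallest net p per list. The members, lists and tests were chosen with earlier results of these data known. The labels do not state that same-numbered libraries share a day or batch, so the numbers were not taken to pair them. Same-numbered libraries deviated with correlations of 0.0498 to 0.163, all positive, which cannot exclude a pairing. Alternatives were other scalings and filters, DESeq2 1.42.0, limma 3.58.1 on the deposited log2 CPM, thinned counts and leaving out each library. Promoters are from RefSeq, found for 111 of 145 named genes. Results for some genes that the rule selects are not reported here.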

Additional observations from a re-analysis of the deposited data

How the results depend on the processing

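With 2 libraries a group, the number of calls rests on single libraries: leaving out each in turn gave 795 to 1626 genes higher and 969 to 1911 lower, and 49.6% of the 3475 calls were kept without Mock control replicate 2 and 50.2% without HSF2oe TGF-β replicate 1. Under the other settings 85.7% to 100% were kept. Leaving out libraries gave 429 to 730 persisted genes, 48 to 136 exceeded, 39 to 93 reduced, 299 to 742 returned (229 to 514 with the interval within ±0.5), 16 to 68 crossed, 123 to 877 unresolved and 997 to 2855 net calls outside the TGF-β response. Library totals alone gave 1195 persisted, 233 exceeded, 1800 returned (1351 within the band), 93 crossed and 1038 unresolved. No low-count filter gave 205 exceeded and 137 crossed. A threshold of 0.01 gave 420 persisted, 47 exceeded, 31 reduced, 415 returned (280 within the band), 13 crossed and 1332 outside the TGF-β response. A band of 0.3 held 162 of the returned genes. The fit with the replicate block gave 2304 genes higher and 2571 lower, 323 exceeded, 233 reduced, 252 crossed and 984 returned within the band; the numbers are not known to pair the libraries. Of the 124 named genes called, 105 were called in all 17 settings. CDH1, at under 2 CPM in every library, changed sign with thinned counts (0.18) and ran from -0.66 to 0.62 without single libraries, and KRT16 from -0.49 to 0.063. The cause of these shifts was not tested.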
